A study of Mus musculus with 2 samples.

Results

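The ERBB receptors and their EGF-family ligands were examined as a group of 10 genes: the receptors Egfr, Erbb2, Erbb3 and Erbb4, and the ligands Areg, Ereg, Hbegf, Tgfa, Btc and Epgn. The members were the probe sets that the platform annotation assigns to exactly 1 of these genes. There were 20 such probe sets for 9 of the 10 genes, of 34945 probe sets for 18193 genes on the array. Areg, the ligand amphiregulin, had 0 such probe sets and gave no value. The material was lung epithelium of ICR mouse embryos at embryonic day 11, cultured in Matrigel, a basement membrane gel. All of it was first grown for 4 days with FGF10, a growth factor of lung budding, together with CHIR99021, which inhibits glycogen synthase kinase 3 and thereby activates Wnt signalling through beta-catenin. The pieces were then embedded afresh and kept for 2 further days in FGF10, either without or with CHIR99021. The contrast is therefore between withdrawal and continued presence of the inhibitor after shared exposure, with 1 Affymetrix array per condition. Each value is therefore a single measurement with no error between cultures, and no p-value is given.

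ERBB receptors are tyrosine kinases that work as dimers. EGF-family ligands are made as membrane-anchored precursors, are released by sheddases of the ADAM family and bind mainly to EGFR, some of them to ERBB4 as well. ERBB2 has no known soluble ligand of its own, and ERBB3 has an impaired kinase and binds neuregulins. The receptors act through RAS, ERK and PI3 kinase, and in developing lung epithelium this signalling is known for roles in growth and maturation.

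Epiregulin and betacellulin were the members that differed most between the arrays: both had lower signals with CHIR99021, and the measured receptors did not reach a 2-fold difference by their brightest probe sets. Signals are MAS5 values on a linear scale as the authors deposited them. A background floor for each array was set from olfactory and vomeronasal receptor probe sets, at a signal of 19.2 without and 12.7 with CHIR99021. A gene was represented by its brightest probe set and called measured when that probe set passed the floor of 1 array or of both. Of the 9 members on the array, 8 were measured and 7 were above the floor on both arrays. Of the 8 measured members, 2 reached a 2-fold lower signal with CHIR99021 on the authors' scale and 0 a 2-fold higher one. Of all 12917 genes measured, 18.4% were lower and 1.90% higher by this threshold, so 2 of 8 is close to the share over all genes. The median log2 ratio, with over without CHIR99021, was -0.82 over the 7 members above the floor on both arrays, against -0.40 over all such genes. With Epgn, which was under the floor without CHIR99021 and above it with the inhibitor, this median was -0.67 over the 8 measured members. Over all measured genes it was -0.42. Epgn entered this median at -0.04, with its value without CHIR99021 raised to the floor, though no ratio is given for it below. The 7 members above the floor on both arrays all had a lower signal with CHIR99021 on the authors' scale (Egfr, Tgfa and Erbb2 not under every other scaling), as did 76.4% of all genes above the floor on both. Whether less RNA per cell or fewer cells of a kind lie behind a lower signal cannot be told apart in such bulk samples.

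**Figure D1:**
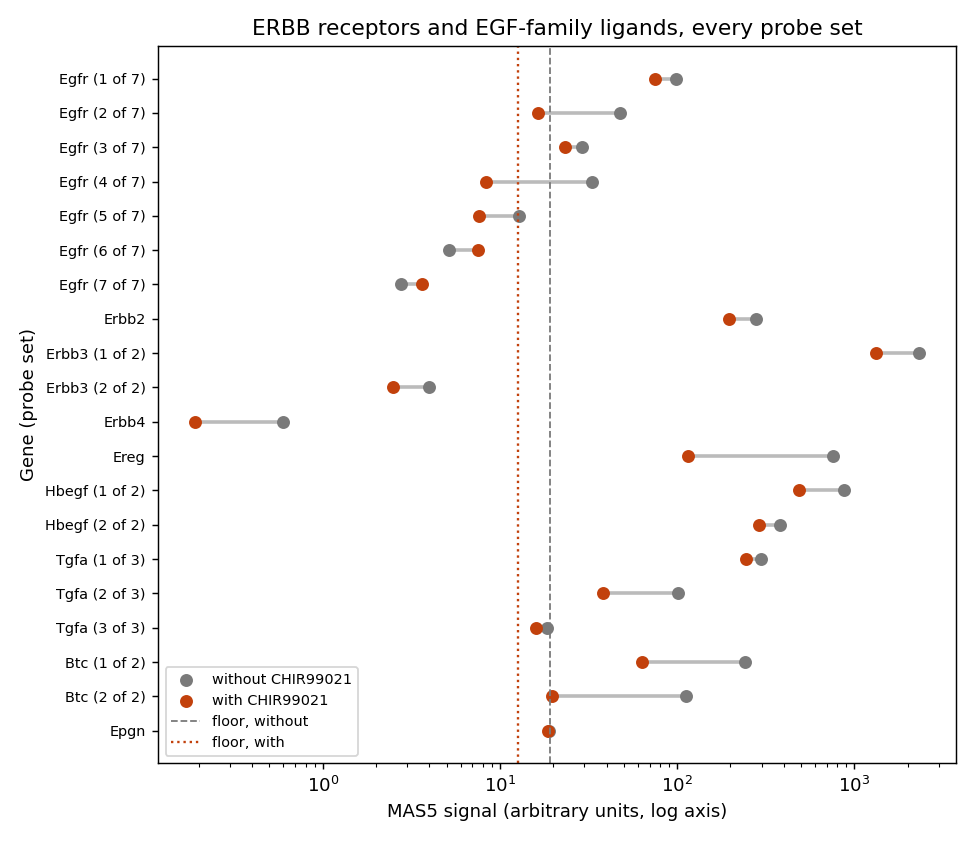
MAS5 signal (log axis) of each of the 20 member probe sets without CHIR99021 (grey) and with it (orange), 1 array each, with the floors of 19.2 and 12.7 as vertical lines. The long bars above the floors belong to Ereg, which went from 760 to 116, and to the 2 probe sets of Btc.

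Among the receptors, Egfr, the receptor of most EGF-family ligands, had 7 probe sets, of which 3 exceeded the floor on both arrays and 1 on the array without CHIR99021 alone. Its brightest probe set had a signal of 98.8 without and 74.6 with CHIR99021, a log2 ratio of -0.41. The next had 47.9 without and 16.4 with CHIR99021, 2.92-fold lower, and a further one had 29.1 and 23.3. The remaining one had 32.9 without CHIR99021 and fell under the floor with the inhibitor, a difference of at least 2.59-fold. These 4 Egfr probe sets thus all gave a lower signal with CHIR99021 on the authors' scale, by 1.25-fold to 2.92-fold among the 3 that could be read on both arrays. The other 3 Egfr probe sets were below the floor on both arrays.

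Erbb2, the co-receptor without a ligand, was read by 1 probe set at 280 without and 195 with CHIR99021, a log2 ratio of -0.52. Erbb3, the neuregulin receptor with an impaired kinase, had 2327 without and 1322 with CHIR99021, 1.76-fold lower, while its other probe set was below the floor on both arrays. Erbb4, the receptor for neuregulins and some EGF-family ligands, was below the floor on both arrays, at 0.594 and 0.189, and gave no ratio. The receptors that could be read were therefore within 2-fold by their brightest probe sets, with log2 ratios from -0.82 to -0.41. Signals of different probe sets depend on the probes, so they give no order of abundance among the genes.

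Among the ligands, Ereg, epiregulin, which binds EGFR and ERBB4, gave 760 without and 116 with CHIR99021. This is 6.56-fold lower, a log2 ratio of -2.71, and it was read by 1 probe set. Of all measured genes, 1.33% had a ratio as low or lower. Btc, betacellulin, a further ligand of both receptors, had 240 without and 63.5 with CHIR99021, 3.78-fold lower, and 3.77% of measured genes had a ratio as low or lower. The dimmer one gave 112 without and 19.8 with CHIR99021, 5.68-fold lower. Both Btc probe sets thus passed 2-fold in the same direction.

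Hbegf, heparin-binding EGF-like growth factor, had 870 without and 486 with CHIR99021, 1.79-fold lower. Its other probe set had 379 and 292, a log2 ratio of -0.38. Tgfa, transforming growth factor alpha, had 299 without and 243 with CHIR99021, 1.23-fold lower. A dimmer Tgfa probe set was 2.63-fold lower, at 101 without and 38.3 with CHIR99021, and the third lay near the floors of both arrays. The probe sets of Tgfa therefore disagreed on whether the gene passed 2-fold, as did those of Egfr. Epgn, epigen, a ligand of EGFR, lay near the floor, at 18.8 without and 18.7 with CHIR99021, and gave no ratio.

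Over probe sets rather than genes, 15 of the 20 exceeded a floor. Of these, 6 were lower by 2-fold or more with CHIR99021 and 0 were higher. The corresponding shares over all 23972 measured probe sets were 24.2% and 1.51%. The 6 were those of Ereg, both of Btc, 2 of Egfr and 1 of Tgfa. Probe sets of 1 gene are not independent measurements. For 5335 genes read by several probe sets on both arrays, the SD of the log2 ratios within a gene was 0.557, a measure of disagreement between probes that says nothing of cultures.

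**Figure D2:**
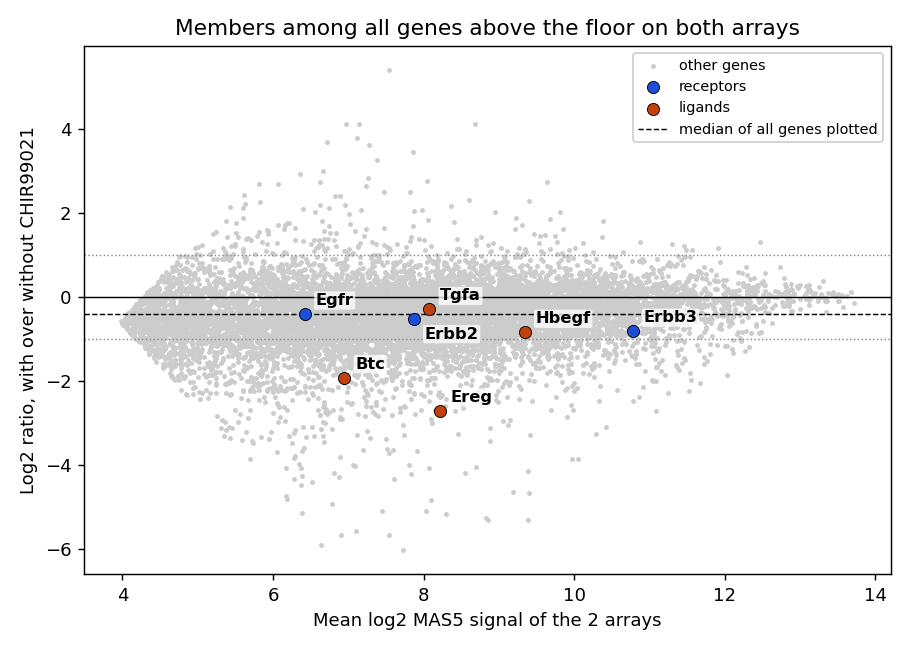
Log2 ratio of signals, with over without CHIR99021, against mean log2 signal for 11356 genes above the floor on both arrays (1 array per condition). The 7 members are marked. Ereg at -2.71 and Btc at -1.92 lie below the dotted line of 2-fold, and Egfr, Erbb2, Erbb3, Hbegf and Tgfa lie between it and 0 on the authors' scale (Egfr, Tgfa and Erbb2 cross 0 under some other scalings), around or below the median of all genes at -0.40 (dashed).

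The array with CHIR99021 was the dimmer one, with a median signal of 20.3 against 32.9, and its ratio of 3' to 5' signal was 3.18 against 1.29 for beta-actin and 1.62 against 0.737 for Gapdh. The part of this difference in the members' ratios was not tested. The arrays were also compared after median centring, quantile normalization, loess and scaling on 18 bacterial hybridization control probe sets. These scalings act on the whole array or by signal level, so they cannot adjust for the position of a probe in a transcript. Ereg and Btc were at least 2-fold lower under each of these 4 scalings, with log2 ratios from -2.56 to -2.17 for Ereg and from -1.77 to -1.28 for Btc. Median centring and the hybridization controls add a constant to every log2 ratio, so they leave the order of genes unchanged. The scalings reuse the same 2 arrays and are not independent support. The members counted 2 lower and 0 higher of 8 each time, against 7.44% of all measured genes lower and 5.91% higher after median centring. Quantile normalization gave 6.33% lower and 7.27% higher genes, loess 7.29% and 6.03%, and the hybridization controls 14.0% and 2.63%. The share of lower members was larger than these shares over all genes, but it rests on 2 genes and was not tested. By their brightest probe sets, Erbb3 and Hbegf stayed below 0 under the 4 scalings, with log2 ratios after loess of -0.57 and -0.47. Egfr and Tgfa, at -0.41 and -0.30 on the authors' scale, were above 0 after median centring, quantile normalization and loess, at 0.16 and 0.18 after loess. Erbb2 was at -0.03 after loess and at 0.05 after quantile normalization. The sign of Egfr, Tgfa and Erbb2 thus turned with the scaling, while that of Ereg, Btc, Erbb3 and Hbegf did not, each by its brightest probe set. The other Hbegf probe set, at -0.38 on the authors' scale, lay above Egfr at -0.41 and was not followed under the scalings.

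**Figure D3:**
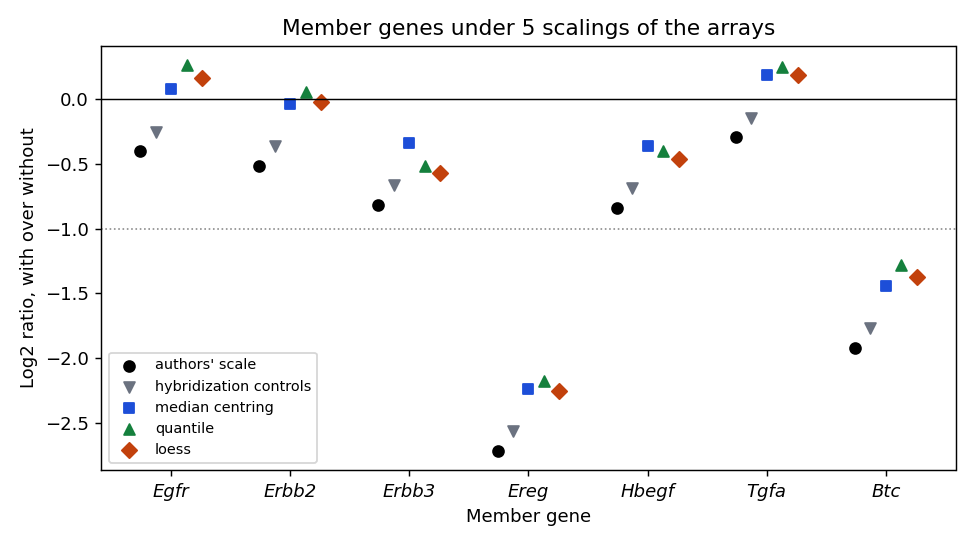
Log2 ratio, with over without CHIR99021, of the 7 members above the floor on both arrays under the authors' scale and 4 other scalings, with 1 point per scaling. The points of Ereg and Btc stay below the dotted line of 2-fold under the 5 scalings, and those of Egfr, Erbb2 and Tgfa lie on both sides of 0.

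Epgn, Ereg, Areg and Btc are neighbours on mouse chromosome 5, in that order and with no other protein-coding gene between them in the RefSeq gene table of assembly GRCm38.p6. Both members of the cluster with a ratio, Ereg and Btc, were at least 2-fold lower with CHIR99021, while Epgn was near the floor and Areg had no probe set. The protein-coding gene on the Epgn side, Mthfd2l, a mitochondrial folate enzyme, had 553 without and 677 with CHIR99021, and its other 3 probe sets had log2 ratios from -0.03 to 0.12. On the Btc side, Parm1, a mucin-like membrane protein, had 51.4 without and 25.7 with CHIR99021, just short of 2-fold lower, while its other probe set was below the floor on both arrays. The lower signals in this stretch were therefore not shared by Mthfd2l.

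The promoters of members in and outside the cluster are shown because Btc was lower, Epgn in the same cluster was near the floor and Tgfa on chromosome 6 was within 2-fold by its brightest probe set. RefSeq promoters of 7 of the 10 members were searched on GRCm38.p6: Egfr, Erbb2, Erbb4, Areg, Tgfa, Btc and Epgn. Those of Ereg, Erbb3 and Hbegf were not searched. The member search left out a chromosome that the shares over all promoters kept. Each line gives the 250 bases before the start site, 5′ to 3′ on the gene's strand, with motif matches in capitals: Btc at chr5:91402995-91403244 (minus strand), Epgn at chr5:91027267-91027516 (plus strand) and Tgfa at chr6:86194972-86195221 (plus strand).
Btc: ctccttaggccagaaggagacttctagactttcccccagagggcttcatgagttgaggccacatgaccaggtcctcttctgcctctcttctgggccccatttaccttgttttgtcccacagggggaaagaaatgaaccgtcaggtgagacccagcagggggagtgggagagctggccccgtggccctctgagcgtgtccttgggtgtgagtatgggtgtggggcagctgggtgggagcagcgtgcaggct
Epgn: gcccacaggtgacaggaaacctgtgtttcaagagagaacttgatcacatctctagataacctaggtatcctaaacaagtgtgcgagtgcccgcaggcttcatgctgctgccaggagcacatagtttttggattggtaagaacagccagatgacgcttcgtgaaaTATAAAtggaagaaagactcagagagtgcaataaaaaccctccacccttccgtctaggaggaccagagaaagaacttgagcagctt
Tgfa: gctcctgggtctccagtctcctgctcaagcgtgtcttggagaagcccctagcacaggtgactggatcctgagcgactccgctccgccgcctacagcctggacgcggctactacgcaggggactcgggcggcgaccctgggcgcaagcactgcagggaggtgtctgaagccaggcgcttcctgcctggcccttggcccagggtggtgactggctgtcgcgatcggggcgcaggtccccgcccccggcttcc
The motifs searched on both strands were the TCF/LEF motif CTTTGAA or CTTTGAT, the AP-1 motif TGACTCA, the cyclic AMP response element TGACGTCA and the TATA box TATAAA, which do not overlap one another in these windows. The TCF/LEF letters were in 0 of the 7 promoters and in 7.48% of all 32851 promoters, and the AP-1 letters in 0 and 4.46%. TATAAA was found in Epgn and Areg, and in 12.4% of all promoters, and TGACGTCA in Areg, and in 1.55% of all. A match describes the letters of this window and is not a measured binding site.

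The other ligands of the family were dim. Egf, the founding ligand, had 63.5 without and 21.9 with CHIR99021, 2.90-fold lower, and it was within 2-fold after quantile normalization and loess. The neuregulins, ligands of ERBB3 and ERBB4, lay near or below the floor. Nrg1 had 23.0 without CHIR99021 and fell under the floor with the inhibitor, a difference of at least 1.81-fold. Nrg2 had 20.8 and 22.5, Nrg4 had 20.2 and 16.6, and Nrg3 was below the floor on both arrays. Of these 5 genes 4 were measured, with 1 lower and 0 higher and a median log2 ratio of -0.57.

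Among 14 genes of ligand shedding and trafficking, all measured, 3 were at least 2-fold lower (21.4%, near the 18.4% of all measured genes) and 0 higher, with a median log2 ratio of -0.66. Of the 3, Cd9 was within 2-fold when median centred and Adam12 after quantile normalization. Timp3, an inhibitor of ADAM sheddases, had 4229 without and 1051 with CHIR99021, 4.02-fold lower, and its other 3 probe sets were 5.99-fold to 10.2-fold lower. Adam12, a sheddase, had 188 and 62.3, 3.02-fold lower, and Cd9, a tetraspanin that associates with the Hbegf precursor, had 6180 and 2741, 2.25-fold lower. The probe sets of the main sheddases of the family disagreed. By the brightest, Adam17, which cleaves most of these ligands, had 939 without and 484 with CHIR99021, and Adam10, which cleaves Btc, had 4713 and 4587. The other 2 Adam17 probe sets were 5.91-fold lower (664 against 112) and 19.1-fold lower (263 against 13.8). Of the other Adam10 probe sets, 1 was 2.84-fold lower (1943 against 685), 1 at least 20.6-fold lower (262 without CHIR99021) and 1 at least 1.22-fold higher (23.4 with CHIR99021), so neither gene has 1 settled ratio. Both genes were named after their values were seen.

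Of 23 adaptors and signal transducers with a probe set, 7 were lower and 0 higher on the authors' scale, and 3 and 1 when median centred. The lower genes made up 30.4%, against 18.4% of all measured genes, and 13.0% against 7.44% when median centred. This list, like the other pathway lists, was chosen with earlier results of these data known, so such shares are a description only. The median log2 ratio was -0.53 on the authors' scale. The catalytic subunit Pik3cb of PI3 kinase had 177 without and 32.7 with CHIR99021, 5.43-fold lower. Pik3r1, a regulatory subunit, had 680 and 136, 5.01-fold lower, and its other 3 probe sets, 1 of them below the floor with CHIR99021, were at least 5.16-fold lower. Stat3, a transcription factor activated downstream of the receptors, was 2.82-fold lower by its brightest probe set and 1.16-fold to 1.85-fold lower by the other 3. By its brightest probe set Stat3 was within 2-fold after quantile normalization.

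Of 21 measured feedback inhibitors of the receptors and of ERK, 6 were lower and 0 higher on the authors' scale, and 2 and 1 when median centred. The lower genes made up 28.6%, against 18.4% of all measured genes, but 9.52% when median centred, near the 7.44% of all genes. The median log2 ratio was -0.76 on the authors' scale. Dusp4, an ERK phosphatase, had 355 without and 106 with CHIR99021, 3.34-fold lower. Errfi1, which binds and inhibits the EGFR kinase, had 1475 and 530, 2.78-fold lower, and its other probe set was 12.8-fold lower. Lrig3, a transmembrane protein of the family that contains the receptor inhibitor Lrig1, had 34.9 without CHIR99021 and fell under the floor with the inhibitor, a difference of at least 2.75-fold, but it was within 2-fold when median centred and after quantile normalization and loess.

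Of 17 measured genes induced by ERK signalling, 7 were lower and 1 higher on the authors' scale, and 4 and 2 when median centred. The lower genes made up 41.2%, against 18.4% of all measured genes, and 23.5% against 7.44% when median centred. Higher genes made up 5.88% against 1.90%, and 11.8% against 5.91% when median centred. This list too was chosen with earlier results of these data known, so its shares are a description only. The median log2 ratio was -0.83 on the authors' scale. Plaur, the urokinase receptor, had 461 without and 50.1 with CHIR99021, 9.20-fold lower. Ier3 and Fos, immediate-early genes, were 7.26-fold and 6.95-fold lower, Fos at 368 and 53.0. The higher one was Etv4, an ETS transcription factor, 4.32-fold by its brightest probe set (51.6 without, 223 with CHIR99021) and 1.07-fold by the other. The median of each of the 5 pathway lists lay below that of all measured genes at -0.42, and the lists were not tested against it. Medians of the epithelial, mesenchymal, mesothelial and endothelial marker lists described below were also under -0.42, from -0.86 to -0.48. Those of immune and neural markers were above it, at -0.32 and 0.32. The neural value is 1 gene, Elavl4, with its signal without CHIR99021 raised to the floor. The endothelial value of -0.86 is that of 2 genes. Of these, Egfl7 was 2.40-fold lower by its brightest probe set and within 2-fold by the others.

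**Figure D4:**
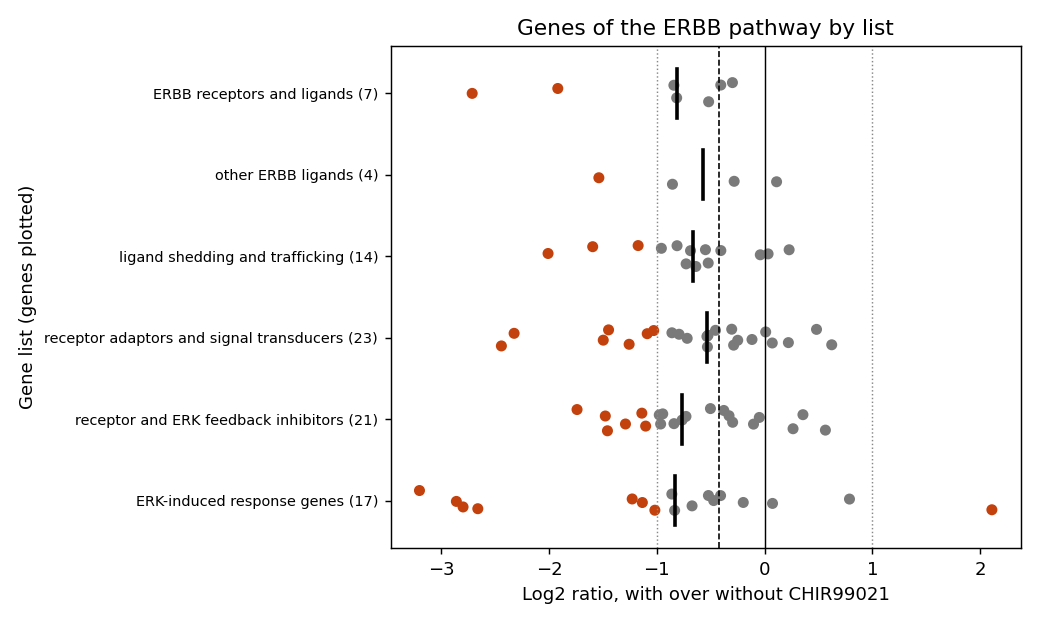
Log2 ratio, with over without CHIR99021, of single genes of the ERBB family (the 7 above the floor on both arrays) and of 5 pathway lists, with the number of genes plotted in brackets. Orange points reach 2-fold (dotted lines), black bars are medians, and the dashed line is the median of all measured genes at -0.42. The ERK-induced genes spread widest, from Plaur at -3.20 to Etv4 at 2.11.

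The genes whose 2 signals lay nearest to those of Erbb3, the receptor with the brightest probe set, were Ttc3, Serinc1 and Slc25a24. Their distances in log2 signal over the 2 arrays were 0.03, 0.04 and 0.04. For Ereg they were Cgnl1, Ptpn13 and Prrg3, at distances of 0.09, 0.12 and 0.21. Cgnl1, a junction protein, had 720 without and 112 with CHIR99021, Ptpn13, a protein tyrosine phosphatase, 763 and 126, and Prrg3, a membrane protein, 755 and 100.1. Likeness over 2 values is a description of these arrays only.

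Other references were read in the same way. Axin2, a target of beta-catenin, was 4.59-fold higher with CHIR99021 and Sox9, a distal tip factor, 11.0-fold higher, opposite to Ereg and Btc, and Actb had 9012 and 8889. Sums below are over the measured markers of a list. Of 8 epithelial markers all were measured, with a summed signal of 36509 without and 24065 with CHIR99021. Among them Krt8 and Krt18, keratins, were 2.45-fold and 2.38-fold lower. Nkx2-1, the lung identity factor, was dim, at 52.0 without CHIR99021 and under the floor with the inhibitor, at least 4.09-fold lower. Epcam (3846 and 3743), Sftpc (8808 and 8500) and Cldn6 (387 and 437) were within 2-fold, as were Cdh1 and Foxa2. Of 13 mesenchymal markers 6 were measured, with sums of 439 and 367: Acta2 (199 and 194), Col1a1, Col1a2, Col3a1, Tagln and Dcn. Pdgfra, Pdgfrb, Twist1, Twist2, Tbx4, Fgf10 and Postn were below the floor on both arrays. Endothelial markers had 2 of 6 measured (sums 133 and 65.6), Kdr and Egfl7, with Pecam1, Cdh5, Tek and Emcn below the floor. Immune markers had 4 of 6 measured (145 and 125), Cd68, Adgre1, Csf1r and Laptm5, with Ptprc and Aif1 below it. Neural markers had 1 measured of the 3 with a probe set, Elavl4 (16.2 and 24.0). Mesothelial markers had 3 of 5 measured, with sums of 503 and 37.2, and Wt1 and Upk3b were below the floor on both arrays. Msln, which is also made by epithelial cells, accounted for most of the former sum, at 471 without CHIR99021 and under the floor with the inhibitor. The part of these cell types in the members' ratios was not tested.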

How the data were processed

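Gene expression was measured on Affymetrix arrays, 1 per condition, labelled from 100 ng of total RNA with a kit that reads mostly the 3' ends of transcripts, per the labels' protocols. The authors deposited 1 linear signal intensity per probe set, made with MAS5 per the submitters' processing notes. A version and a scaling target are not given in the sources used here. Deposited intensities ran from 0.0201 to 14129. MAS5 values of dim probe sets scatter widely. The number of arrays limits the precision.

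Probe sets were named from the platform annotation. Of 45101, 34945 named 1 gene, 932 several, 64 were controls and 9160 were not named here. The symbols of the 20 member probe sets equalled those of the RefSeq gene table, matched by Entrez identifier. The floor of an array was the 95th percentile of its 80 olfactory and vomeronasal receptor probe sets, and lower values were raised to it, so "at least" marks a bound, where 1 array did not pass its floor. No ratio is given where the brighter value does not pass the other array's floor. A gene's probe set was that with the highest mean log2 signal, and a gene counted as higher or lower from 2-fold. The procedure was tested on data simulated from the array without CHIR99021, with the same noise level for every probe set. This test does not give the error of the real arrays.

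Named genes are the members, up to 3 genes past 2-fold in each direction from each of 5 pathway lists, the 3 genes nearest to the brightest receptor and to the ligand with the largest ratio, chromosomal neighbours, and Actb, Axin2 and Sox9. The neuregulins and the cell type markers are named as members of fixed lists, outside this rule, and Adam10 and Adam17 after their values were seen. Members and lists were chosen with earlier results of these data known, and the TATA box was added after seeing the promoters. Alternatives were 4 scalings (loess span 0.4), floors at percentiles 75 and 99 or none, an offset of 16, other probe set rules and fold thresholds of 1.5 and 3. Python 3.11.15, numpy 2.4.6, pandas 2.3.3, statsmodels 0.14.6 and matplotlib 3.10.9 were used.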

Additional observations from a re-analysis of the deposited data

How the results depend on the processing

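The members counted 2 lower and 0 higher of those measured under each alternative run, except that 3 were lower without a floor (Erbb4, dim on both arrays, joined them) and 4 at a threshold of 1.5-fold (Ereg, Btc, Erbb3 and Hbegf). At 1.5-fold 38.7% of all measured genes were lower and 5.05% higher. The median log2 ratio of the members ranged from -0.82 without a floor to -0.18 after quantile normalization. Over all genes, 245 higher and 2380 lower on the authors' scale became 763 and 961 (median centring), 939 and 817 (quantile), 779 and 942 (loess) and 340 and 1811 (hybridization controls), and the median log2 ratio became 0.05, 0.12, 0.04 and -0.27. Without a floor 1213 were higher and 4606 lower, at 1.5-fold 652 and 5005, and at 3-fold 81 and 812. For Egfr, the median over its probe sets gave -0.89 in place of -0.41. Lower feedback inhibitors fell from 6 to 2 after median centring, quantile normalization and loess, to 1 at 3-fold, and rose to 12 at 1.5-fold. Lower transducers fell from 7 to 3, 2 and 4 after these scalings and to 2 at 3-fold, and lower ERK-induced genes from 7 to 4 after each and at 3-fold. Higher genes in these 3 lists changed by at most 1. Lower shedding genes rose from 3 to 8 at 1.5-fold. Lower genes among Egf and the neuregulins ranged from 0 to 3. Of these alternatives the cause was not tested. No paired analysis was possible because each condition had 1 array, and leaving out an array leaves no comparison. Dim members (Epgn, Erbb4 and most Egfr probe sets) are limited by the floor.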
